A study of Mus musculus with 20 samples.

Results

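The MHC class II genes examined here are the 8 mouse genes H2-Aa, H2-Ab1, H2-Eb1, H2-DMa, H2-Oa, H2-Ob, Cd74 and Ciita. They were taken as every array probe set whose platform annotation names exactly 1 of these symbols and no other gene. All 8 were found, on 67 probe sets of the 182058 on the array (Ciita on 22, Cd74 on 12, H2-Eb1 on 7, H2-Ab1 on 6 and each of the others on 5), among 19607 genes named in this way. All 8 passed the filter on dim genes, set at the 40th percentile of an array, in every comparison.

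The series measured gene expression on 20 arrays of C57BL/6 mouse thymocytes, the immature T cells that fill the thymus, and of tumours whose source is labelled thymocytes. The product of Gfi1, the gene deleted in the study, is a zinc finger protein that silences other genes in stem cells of the blood, in granulocyte precursors and in the T lineage. Thymocytes came from untreated mice, 2 arrays of WT and 2 of Gfi1 KO, and from irradiated mice, 3 arrays of each. For these mice the sources used here give neither a radiation dose, nor the time after it, nor the knockout allele. Tumours came from mice with floxed Gfi1, which without Cre are called WT (Gfi1f/f) and with the interferon-inducible Mx1Cre+ transgene are labelled KO. All tumour mice received the alkylating mutagen ENU, either alone (ENU tumours, 3 WT and 3 KO arrays) or with a Notch transgene that the labels call Notch1-CT (Notch tumours, 2 and 2). Per the labelled procedure, pIpC was injected once ultrasound showed a growing tumour, and tumour cells were taken about 2 to 3 weeks later. pIpC acts through interferon, which it induces, to switch Mx1-Cre on. Tumour mice of both genotypes received it. The sources used here do not say whether each array is a mouse of its own, and if not, p-values reflect technical spread alone.

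Class II molecules are pairs of an alpha and a beta chain that show peptides from endosomes to CD4 T cells. Mouse I-A is the pair encoded by H2-Aa and H2-Ab1, and I-E that encoded by H2-Ea and H2-Eb1. Cd74, the invariant chain, fills the groove of new class II molecules and guides them to endosomes. There H2-DM, whose alpha chain is H2-DMa, exchanges the last piece of the invariant chain for peptides, and H2-O, the pair of H2-Oa and H2-Ob, restrains H2-DM, chiefly in B cells. Ciita encodes the coactivator that switches the whole group on. It is recruited by the factors RFX, CREB and NF-Y, which sit together on the X and Y boxes of class II promoters. In the thymus class II is carried by thymic epithelium, dendritic cells, macrophages and B cells, and mouse thymocytes themselves make little of it. In bulk RNA such as this, fewer cells of a type and less RNA per cell cannot be told apart.

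The promoters of 5 of the 8 genes, H2-Oa, H2-DMa, H2-Ob, H2-Aa and H2-Eb1, are held in the RefSeq promoter table used here (build GRCm38.p6, 250 bases before to 50 after each start). Promoters were searched on both strands for the letters GCAAC, from the core of the X box, and GATTGG, which holds the CCAAT of the Y box read on the other strand. Of 32851 mouse promoters in the table, 35.2% held the first and 16.1% the second, and 0.435% held the first followed by the second 15 to 40 bases on. H2-Oa, H2-Ob, H2-Aa and H2-Eb1 held this pair, with 27, 24, 27 and 26 bases between the cores. The 2 promoters listed for H2-DMa did not. The stretches are shown because they let the shared layout of the genes be read directly: 5′ to 3′ along the gene, with both cores in capitals and 20 bases on either side. They are H2-Aa (chr17:34287847-34287924, minus strand), H2-Eb1 (chr17:34305756-34305832, plus strand), H2-Oa (chr17:34092283-34092360, plus strand) and H2-Ob (chr17:34238798-34238872, plus strand), and the X core begins 76 to 91 bases before the RefSeq start.
H2-Aa: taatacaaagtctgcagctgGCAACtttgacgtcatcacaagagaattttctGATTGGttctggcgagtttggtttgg
H2-Eb1: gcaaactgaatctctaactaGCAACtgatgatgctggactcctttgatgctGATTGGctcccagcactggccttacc
H2-Oa: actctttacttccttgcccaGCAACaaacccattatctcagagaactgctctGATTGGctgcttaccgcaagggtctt
H2-Ob: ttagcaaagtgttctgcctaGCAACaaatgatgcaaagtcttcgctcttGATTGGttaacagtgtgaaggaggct
A match of letters is a description of these windows and shows no binding.

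Values are log2 signal as deposited, on arrays whose medians ran from 9.08 to 9.27. Summed thymocyte markers lay at 16.33 to 16.63 on the thymocyte arrays and at 15.18 to 16.09 on 9 of the 10 tumour arrays. The tenth, KO Notch tumour 2, had 14.12 and stood apart from all others, as described with the Notch tumours, so class II results in tumours are given with and without it. The Gfi1 probe sets, numbered 1 to 8 by their IDs, did not show the same loss in every KO group. Probe set 2 in KO thymocytes without treatment fell by 6.31 ± 0.15 (log2 difference ± SE, as for all differences below, limma adjusted p = 8.92e-09), and probe sets 3 and 4 fell too. Probe sets 1, 5 and 7 rose there, by 1.07 to 1.20. In irradiated KO thymocytes probe sets 1 to 3 rose and probe sets 4 to 8 fell, by 1.35 to 2.44. In KO Notch tumours probe set 2 was at 6.70 ± 0.56 against 11.22 ± 0.30 in WT (SD, n = 2 each, limma adjusted p = 0.046). In ENU tumours labelled KO, probe set 2 was at 10.85 ± 0.15 against 11.12 ± 0.50 (SD, n = 3 each), and none of the 7 probe sets tested passed. Directions for the ENU tumours therefore rest on the label alone. The untreated and irradiated KO arrays shared a fall at probe set 4 and otherwise lost signal at different Gfi1 probe sets.

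**Figure D1:**
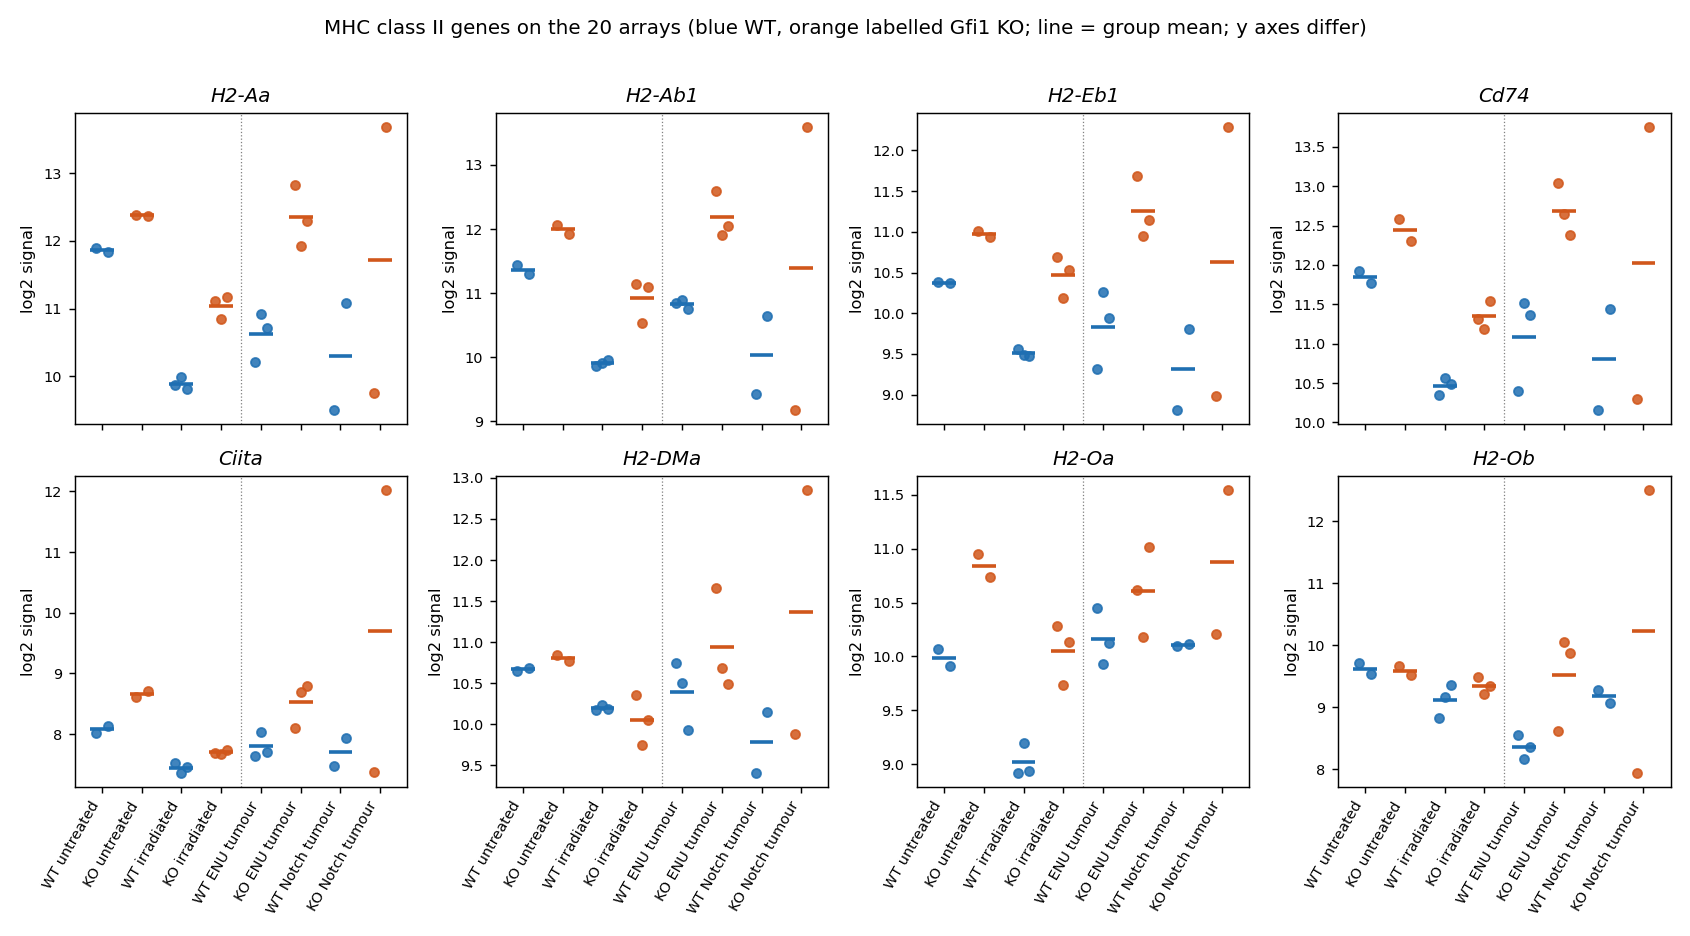
Log2 signal (y axis, a range of its own in each panel) of the 8 MHC class II genes on each of the 20 arrays, by group (x axis); points are arrays, lines are group means, blue is WT and orange is labelled Gfi1 KO. H2-Aa lies at 11.84 to 12.38 on untreated and at 9.81 to 11.18 on irradiated thymocyte arrays, and KO Notch tumour 2 is the highest point of every panel.

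The first question was whether class II genes differ between KO and WT thymocytes without treatment. They were higher in the KO arrays: 6 of the 8 rose, none fell, and the median difference of the 8 was 0.59, against -0.02 for all 12747 genes tested. Over all genes 6.79% were called higher and 5.49% lower in this comparison. Both chains of I-A, H2-Eb1, the invariant chain, Ciita and H2-Oa made up the 6, while H2-DMa and H2-Ob did not pass.

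Among the antigen-binding chains, H2-Aa read 11.90 and 11.84 on the WT arrays and 12.38 and 12.38 on the KO arrays. H2-Ab1 read 11.43 and 11.29 in WT and 12.07 and 11.93 in KO, and the means of H2-Eb1 were 10.38 ± 0.01 in WT and 10.97 ± 0.05 in KO (SD, n = 2 each). For all 3 genes every KO array lay above both WT arrays. The differences were 0.51 ± 0.12, 0.63 ± 0.16 and 0.60 ± 0.13, with limma adjusted p-values of 0.00886, 0.0122 and 0.00629. All 5 probe sets of H2-Aa, all 6 of H2-Ab1 and the 5 of H2-Eb1 bright enough to be tested pointed upwards. Tested singly, 1, 1 and 2 of them passed, beside 4.66% of all probe sets tested in either direction. Probe sets of a gene share the same arrays, so their signs are not independent. Cd74, the invariant chain, read 11.92 and 11.77 in WT and 12.58 and 12.30 in KO, a difference of 0.60 ± 0.13 (limma adjusted p = 0.00579). All 12 of its probe sets were higher in KO, and 1 of them passed when tested singly.

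Ciita, the coactivator, read 8.02 and 8.14 in WT and 8.61 and 8.70 in KO, again without overlap, and differed by 0.58 ± 0.11 (limma adjusted p = 0.00124). Only 11 of its 22 probe sets were bright enough to be tested, and 10 of these pointed upwards, over a range of -0.04 to 0.85. Tested singly, 0 of the 11 passed. H2-Oa, the alpha chain of the H2-DM inhibitor, had the widest gap of the 8 genes: 10.07 and 9.91 in WT against 10.95 and 10.73 in KO, or 0.85 ± 0.16 (limma adjusted p = 0.00124). Of its 5 probe sets 3 passed. Its partner H2-Ob did not follow, with 9.71 and 9.54 in WT, 9.66 and 9.52 in KO and a difference of -0.03 ± 0.15 (limma adjusted p = 0.938). H2-DMa read 10.65 and 10.69 in WT and 10.84 and 10.78 in KO, 0.14 ± 0.15 apart and below the threshold for a call (limma adjusted p = 0.66). The 7 genes other than H2-Ob had KO arrays above both WT arrays, which was so for 28.6% of all genes tested. The calls rested on few arrays: without WT untreated 2 or without KO untreated 1, only Ciita and H2-Oa passed, and without KO untreated 2 H2-Aa did not (0.0717). In a single fit of all 20 arrays, whose spread includes that of the tumours, 0 members passed in this comparison or in any other of thymocytes.

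Genes that work beside class II moved in the same direction in the untreated KO arrays. Of the 11 tested genes among other class II loci, antigen processing and costimulation, 8 rose and none fell, with a median of 0.56. The endosomal proteases Ctss, which trims the invariant chain, and Lgmn rose by 1.18 ± 0.11 and 1.34 ± 0.13 (limma adjusted p = 1.56e-06 and 2.29e-06). Cd83 and the costimulatory ligand Cd86 rose by 0.60 ± 0.12 and 0.59 ± 0.11 (limma adjusted p = 0.00186 and 0.00191). Of 10 tested genes on the interferon gamma route to Ciita 3 rose and none fell: the interferon-induced chemokine Cxcl9 (1.01 ± 0.14), Irf8 (0.43 ± 0.11) and the GTPase Gbp2 (0.46 ± 0.13), with limma adjusted p-values of 6.44e-05, 0.012 and 0.0302. Among the 7 factors that bind class II promoters (Rfx5, Rfxap, Rfxank, Nfya, Nfyb, Nfyc and Creb1), none passed in either direction.

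Some markers of class II bearing cells rose with the class II genes, where 6.79% of all genes tested were called higher. Of 10 tested B cell markers 6 rose and none fell, led by the kinase Blk (0.89 ± 0.11) and the Fc receptor Fcer2a (1.03 ± 0.14), and the summed level of the 13 measured was 12.76 to 12.90 in WT and 13.09 to 13.14 in KO. Of 8 tested dendritic cell and macrophage markers 3 rose, with Itgax (0.70 ± 0.15) and Csf1r (0.47 ± 0.12) first, and the median difference of the 8 was 0.24. The sum of the 15 measured was 12.84 to 12.90 in WT and 13.25 to 13.27 in KO. Of 9 tested thymic epithelium markers 2 rose, Cldn4 (1.34 ± 0.15) and Epcam (0.74 ± 0.15), and the median difference of the 9 was 0.15. The sums of the 14 measured were 11.99 to 12.08 in WT and 12.46 to 12.57 in KO. The 11 thymocyte markers had no call. All 7 granulocyte markers were lower in KO, with sums of 12.71 to 12.92 in WT and 9.28 to 9.34 in KO. The part of these cells in the class II difference was not tested.

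**Figure D2:**
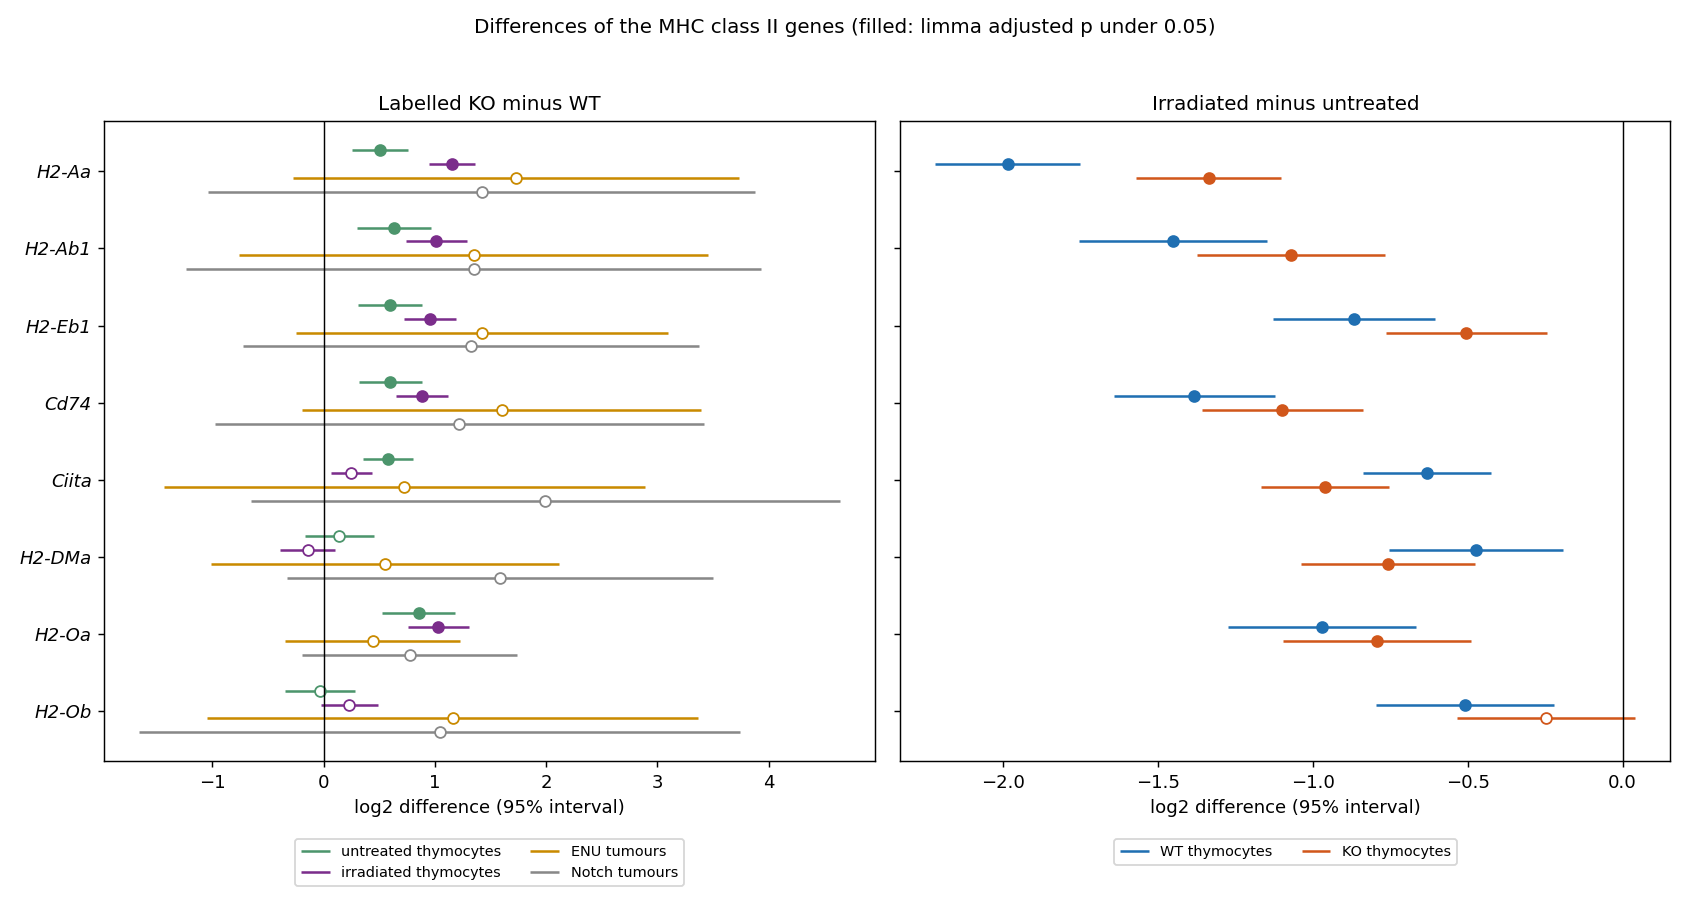
Log2 differences (x axis) of the 8 class II genes (y axis) with 95% intervals from limma, labelled KO minus WT in 4 settings on the left and irradiated minus untreated in each genotype on the right; filled points have an adjusted p under 0.05. The thymocyte intervals are narrow and mostly filled, H2-Aa fell most after irradiation (-1.98 in WT), and all 16 tumour points are open with wide intervals.

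Irradiated thymocytes gave the second KO against WT comparison, on 6 other arrays. Of the 8 genes, 5 were higher in KO and none lower (8.12% of 12747 genes were called higher and 6.81% lower), with a median difference of 0.92 against -0.03 for all genes. These were H2-Aa, H2-Ab1, H2-Eb1, Cd74 and H2-Oa. Ciita, H2-DMa and H2-Ob did not pass.

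H2-Aa read 9.87, 9.99 and 9.81 in WT and 11.11, 10.85 and 11.18 in KO. Every KO array lay far above every WT array, by 1.16 ± 0.10 on average (limma adjusted p = 2.06e-07), a 2.23-fold difference if the log base is 2. H2-Ab1 read 9.87, 9.92 and 9.95 in WT and 11.15, 10.54 and 11.09 in KO, and differed by 1.01 ± 0.13 (limma adjusted p = 2.08e-05). H2-Eb1 read 9.56, 9.48 and 9.48 in WT and 10.69, 10.19 and 10.52 in KO, and differed by 0.96 ± 0.11 (limma adjusted p = 7.24e-06). The second KO array was the lowest KO array for each of these chains and still lay above all 3 WT arrays. Cd74 read 10.34, 10.56 and 10.49 in WT and 11.31, 11.19 and 11.54 in KO, a difference of 0.88 ± 0.11 (limma adjusted p = 1.65e-05).

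H2-Oa again had a gap, from 8.92, 9.20 and 8.94 in WT to 10.29, 9.73 and 10.13 in KO, or 1.03 ± 0.13 (limma adjusted p = 1.68e-05). H2-Ob read 8.83, 9.16 and 9.35 in WT and 9.49, 9.21 and 9.33 in KO, so that the groups overlapped (0.23 ± 0.12, limma adjusted p = 0.26). H2-DMa overlapped too, with 10.17, 10.24 and 10.18 in WT and 10.35, 9.75 and 10.06 in KO (limma adjusted p = 0.526). H2-Oa and H2-Ob, partners in 1 protein, thus differed in their calls in both settings, and H2-DMa had no call in either. Ciita read 7.53, 7.37 and 7.45 in WT and 7.69, 7.68 and 7.73 in KO. Its groups did not overlap, and the difference of 0.25 ± 0.09 just missed the threshold (limma adjusted p = 0.0658). It passed where the mean of the probe sets replaced their median (limma adjusted p = 0.0299) and without WT irradiated 1 (0.0397). The 6 genes without overlap compare with 11.8% of all genes tested. Leaving out any 1 array kept 5 or 6 of the 8 genes called.

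The genes beside class II showed a like count. In antigen processing and costimulation 7 of 11 tested rose and none fell, with a median of 0.73: Ctss rose by 1.46 ± 0.09, Lgmn by 1.30 ± 0.11, Cd83 by 1.07 ± 0.10 and Cd86 by 0.84 ± 0.09 (limma adjusted p from 5.64e-09 to 4.84e-06). On the interferon gamma route 3 of 10 rose: Gbp2 by 1.08 ± 0.11, the transcription factor Irf1 by 0.71 ± 0.12 and the receptor chain Ifngr2 by 0.28 ± 0.08. Of the promoter factors Rfx5 was lower in KO (-0.30 ± 0.09, limma adjusted p = 0.0249) and Creb1 higher (0.28 ± 0.09, limma adjusted p = 0.0478), and the other 5 did not pass. Of 10 tested B cell markers 6 rose, led by Cd79a (1.12 ± 0.12) and Ms4a1 (0.74 ± 0.10), and Cd79b fell, while the sums overlapped (11.97 to 12.23 in WT, 12.12 to 12.33 in KO). Dendritic cell and macrophage markers had 4 rises of 8, with Lyz2 (2.06 ± 0.12) and Itgam (0.65 ± 0.11) first, and 1 fall. Their median difference was 0.17. Their sums, in which the brightest genes weigh most, were 11.73 to 11.79 in WT and 12.31 to 12.52 in KO. Of 7 granulocyte markers 6 were lower in KO (sums of 10.92 to 11.30 against 9.50 to 9.55). Thymic epithelium markers had 2 rises of 9 and no fall, and their median difference was 0.002, although their sums were apart (11.95 to 12.04 in WT and 12.22 to 12.29 in KO). Of 11 thymocyte markers 2 fell (sums of 16.38 to 16.47 and 16.33 to 16.42). What part any of these cells have in the class II values was not tested.

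Irradiated arrays had lower class II values than untreated arrays in both genotypes. In WT thymocytes all 8 genes fell, beside 21.7% of all 12747 genes, with a median of -0.92. In KO thymocytes 7 of the 8 fell, beside 23.7% of all genes, with a median of -0.88. These comparisons use the same arrays as those between genotypes above.

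H2-Aa fell most, by 1.98 ± 0.11 in WT (limma adjusted p = 2.4e-09, 3.96-fold if the base is 2) and by 1.34 ± 0.11 in KO (limma adjusted p = 1.7e-07). H2-Ab1 and Cd74 followed, with falls of 1.45 ± 0.14 and 1.38 ± 0.12 in WT and of 1.07 ± 0.14 and 1.10 ± 0.12 in KO. The invariant chain and both I-A chains thus moved together, with no irradiated array as high as any untreated array of its genotype. That separation held for all 8 genes in both genotypes, beside 33% of all genes in WT and 36.1% in KO. H2-Oa fell by 0.97 ± 0.14 in WT and 0.79 ± 0.14 in KO, and H2-Eb1 by 0.87 ± 0.12 and 0.50 ± 0.12. Ciita fell by 0.63 ± 0.10 in WT and 0.96 ± 0.10 in KO, and H2-DMa by 0.47 ± 0.13 and 0.76 ± 0.13. These 2 genes had the larger fall in KO, the reverse of the order for the antigen-binding chains. Their probe sets were not uniform. Of the 11 Ciita probe sets bright enough to be tested, 3 passed as lower in WT and 5 in KO, while 4 and 3 had differences above 0. Of the 5 of H2-DMa, 3 passed as lower in WT and 4 in KO, and 1 was above 0 in WT. H2-Ob fell by 0.51 ± 0.14 in WT (limma adjusted p = 0.00856), and its difference of -0.25 ± 0.14 in KO did not pass (limma adjusted p = 0.16). Without WT untreated 1, H2-DMa and H2-Ob lost their calls in WT, without WT untreated 2 H2-DMa did, and without KO untreated 1 H2-Eb1 lost its call in KO.

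The difference between the 2 falls was itself tested. H2-Aa alone of the 8 passed: it fell less in KO, by 0.65 ± 0.16 (limma adjusted p = 0.0422), beside 1.1% of genes called in that direction and 1.88% in either. For Ciita the difference was -0.33 ± 0.14 (limma adjusted p = 0.304), and for the other 6 it lay between -0.29 and 0.38 with adjusted p-values from 0.4 to 0.806. The call for H2-Aa was lost in 8 of the 10 fits that leave out 1 array and with the mean of the probe sets (0.121), no filter (0.0797), a further quantile normalization (0.0584) or the replicate block (0.072). Since untreated and irradiated KO arrays lost signal at Gfi1 probe sets that differed except for probe set 4, irradiation and this difference between KO arrays cannot be told apart in the KO fall. Whether untreated and irradiated WT arrays differ in anything besides irradiation was not tested.

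Genes beside class II went both ways. Of all genes tested, 21.7% fell in WT and 23.7% in KO, while 13% and 15.1% rose. Of the 11 processing and costimulation genes 7 fell in WT and 8 in KO, with Ctss (-1.40 ± 0.10 in WT, -1.12 ± 0.10 in KO) and Ifi30, the endosomal thiol reductase (-1.27 ± 0.13 and -1.25 ± 0.13), among the smallest p-values in both. Cd80 rose in both, by 0.40 ± 0.11 and 0.69 ± 0.11. Of the promoter factors, Rfx5 fell by 0.64 ± 0.10 in WT and 0.81 ± 0.10 in KO, Creb1 by 0.63 ± 0.10 and 0.36 ± 0.10 and Rfxank by 0.39 ± 0.10 and 0.29 ± 0.10, while Nfya and Nfyb rose in both. On the interferon gamma route 3 of 10 fell and 1 rose in WT, and 4 fell and 2 rose in KO. Irf1 fell by 0.74 ± 0.14 and 0.48 ± 0.14, and Socs1, a brake on cytokine signalling, rose by 0.69 ± 0.13 and 0.50 ± 0.13. B cell markers fell in number, 8 of 10 in WT and 9 of 10 in KO, with Ms4a1 (-1.61 ± 0.12 in WT) and Bank1 (-1.39 ± 0.11 in KO) leading, and their sums went from 12.76 to 12.90 down to 11.97 to 12.23 in WT and from 13.09 to 13.14 down to 12.12 to 12.33 in KO. Dendritic cell and macrophage markers fell for 5 and 6 of 8, led by Lyz2 in both. Thymic epithelium markers went both ways, with 1 rise and 3 falls of 9 in WT and 1 rise and 4 falls in KO. Their sums overlapped in WT (11.99 to 12.08 untreated, 11.95 to 12.04 irradiated). All 7 granulocyte markers fell in WT, whereas in KO 1 rose and none fell. Thymocyte markers fell for 6 of 11 in each genotype, with sums of 16.60 to 16.63 and 16.38 to 16.47 in WT. The share of these cells in the class II fall was not tested.

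**Figure D3:**
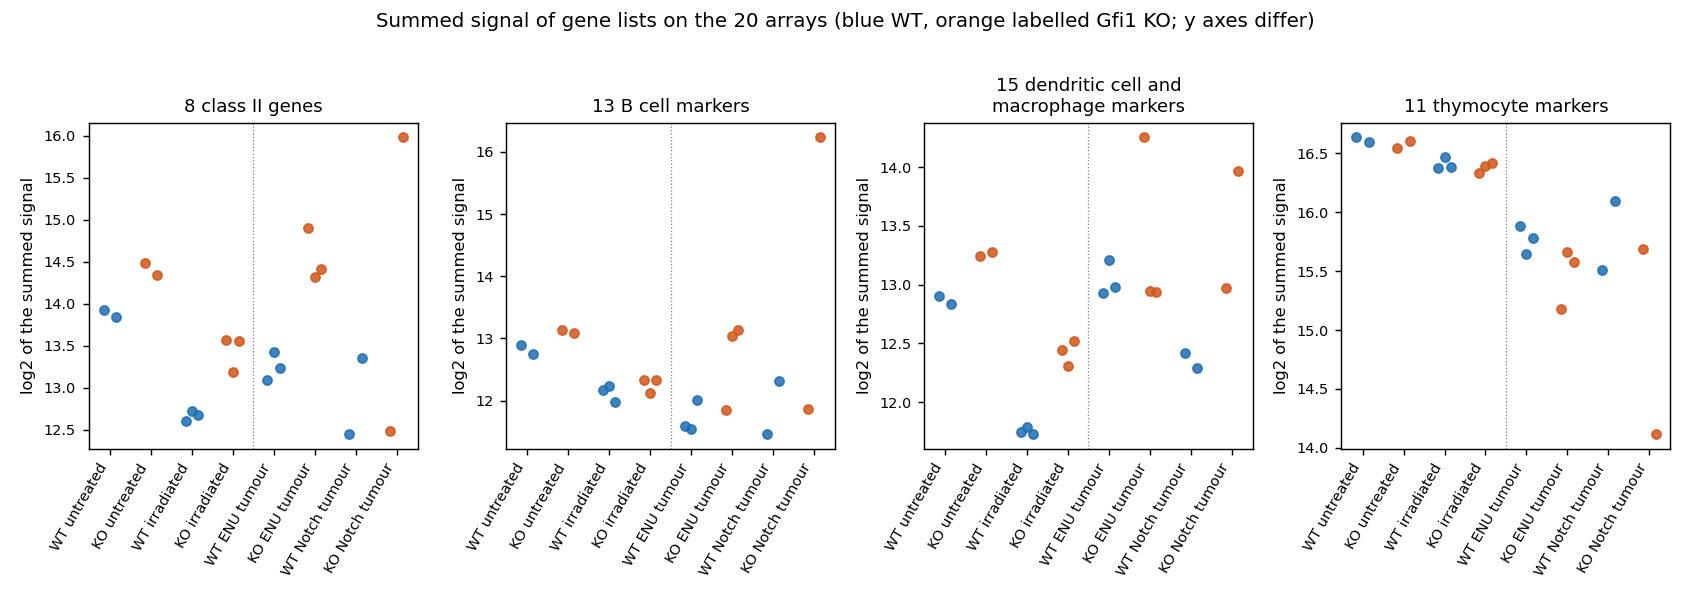
Log2 of the summed linear signal (y axis, a range of its own in each panel) of the 8 class II genes, 13 B cell markers, 15 dendritic cell and macrophage markers and 11 thymocyte markers on each of the 20 arrays, by group (x axis); blue is WT and orange is labelled Gfi1 KO. KO Notch tumour 2 has the highest class II and B cell sums (15.98 and 16.23) and the lowest thymocyte sum (14.12), and KO ENU tumour 1 has the highest dendritic cell and macrophage sum (14.25).

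In ENU tumours the class II genes were higher on the arrays labelled KO, and no difference passed the test. Of 13025 genes 0% were called by limma, with 1782 at an unadjusted p under 0.05. For 6 of the 8 members every array labelled KO lay above every WT array (H2-Ob, Ciita and the antigen-binding and invariant chains), which was so for 10.4% of all genes. The median difference of the 8 was 1.25, against -0.07 for all genes.

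H2-Aa read 10.21, 10.93 and 10.72 in WT and 12.83, 11.92 and 12.30 on the arrays labelled KO, a difference of 1.73 ± 0.88 (limma adjusted p = 0.379). H2-Ab1 read 10.85, 10.89 and 10.76 against 12.60, 11.90 and 12.04, and differed by 1.35 ± 0.92 (0.453). Cd74 read 10.40, 11.51 and 11.36 against 13.04, 12.65 and 12.38, and differed by 1.60 ± 0.79 (0.373). All 3 genes were highest in the first tumour labelled KO. H2-Eb1 read 9.31, 10.26 and 9.94 against 11.68, 10.95 and 11.14 (1.42 ± 0.73). Ciita and H2-Ob had another order: Ciita read 7.64, 8.04 and 7.71 against 8.09, 8.69 and 8.80 (0.73 ± 0.95), and H2-Ob 8.55, 8.16 and 8.36 against 8.62, 10.06 and 9.88 (1.16 ± 0.97). For these 2 genes tumours 2 and 3 labelled KO were the high ones. H2-DMa and H2-Oa overlapped between the groups, with differences of 0.55 ± 0.68 and 0.44 ± 0.34.

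The standard errors share the spread of all 4 tumour groups, KO Notch tumour 2 included. With that array left out of the fit, the differences are the same by construction and 25 of 12853 genes passed (0.195%). No member was among them, with limma adjusted p-values from 0.116 (H2-Ab1) to 0.369 (H2-DMa). Markers of other cells also differed from tumour to tumour. The first tumour labelled KO had summed dendritic cell and macrophage markers of 14.25 and B cell markers of 11.85. Its granulocyte markers summed to 11.28, against 9.67 to 9.94 on the 5 other ENU arrays, and its thymocyte markers to 15.18, the lowest of the 6. Tumours 2 and 3 had 12.95 and 12.94 for the former and 13.03 and 13.14 for the latter. WT ENU tumours lay at 12.93 to 13.21 and at 11.55 to 12.02. Of 10 tested dendritic cell and macrophage markers and 12 tested B cell markers none passed, and their part in the class II values was not tested.

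KO Notch tumours had no common class II level. The 8 genes had a median difference of 1.34 from WT Notch tumours, against -0.05 for all genes, and 0 passed, beside 0.0154% of 13025 genes called by limma (2 genes, both lower, with 780 genes at an unadjusted p under 0.05). H2-Aa read 9.75 and 13.68 in KO and 9.51 and 11.08 in WT, and H2-Ab1 9.18 and 13.59 against 9.43 and 10.64. One KO tumour thus lay among or below the WT tumours and the other far above both. Ciita, with 7.37 and 12.02 against 7.48 and 7.93, had the widest gap between the 2 KO tumours, and its difference from WT of 1.99 ± 1.16 had an adjusted p of 0.812. H2-Oa was the 1 gene whose KO arrays both lay above both WT arrays (10.21 and 11.54 against 10.09 and 10.12), as 11.7% of all genes did.

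The direction of the comparison hung on which KO tumour was kept. With KO Notch tumour 2 left out, 6 differences turned below 0, for H2-Aa to -0.55, H2-Ab1 to -0.85, H2-Eb1 to -0.33, Cd74 to -0.50, Ciita to -0.33 and H2-Ob to -1.24, and none of the 8 passed, beside 0.0389% of 12853 genes. With KO Notch tumour 1 left out, all 8 passed, from 1.44 for H2-Oa (limma adjusted p = 0.0434) to 4.31 for Ciita (0.000892), beside 8.23% of 12951 genes, 1066 in number. In both of these fits the lone KO array is assumed to vary like the other tumours. The difference between the KO effects in Notch and ENU tumours lay between -0.38 and 1.26 for the 8 genes, and none passed, as none of all 13025 genes did (0%, with 934 at an unadjusted p under 0.05). With KO Notch tumour 2 left out it lay between -2.40 and -0.33 and none of the 8 passed, beside 0.0156% of genes, and with KO Notch tumour 1 left out between 1.00 and 3.59, with 1 of the 8 called beside 2.02% of genes.

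KO Notch tumour 2 had the highest value of all 20 arrays for every one of the 8 genes. Of 13520 genes, 12% were highest there and 19.2% lowest. Cd74 read 13.75 there and at most 13.04 elsewhere, H2-DMa 12.85 and at most 11.66, and H2-Ob 12.50 and at most 10.06. Ciita stood out furthest, at 12.02 against at most 8.80. For 21 of its 22 probe sets this array was above the 19 others, by up to 4.19. The exception, probe set 1, read 9.35 there and reached 9.90 elsewhere.

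**Figure D4:**
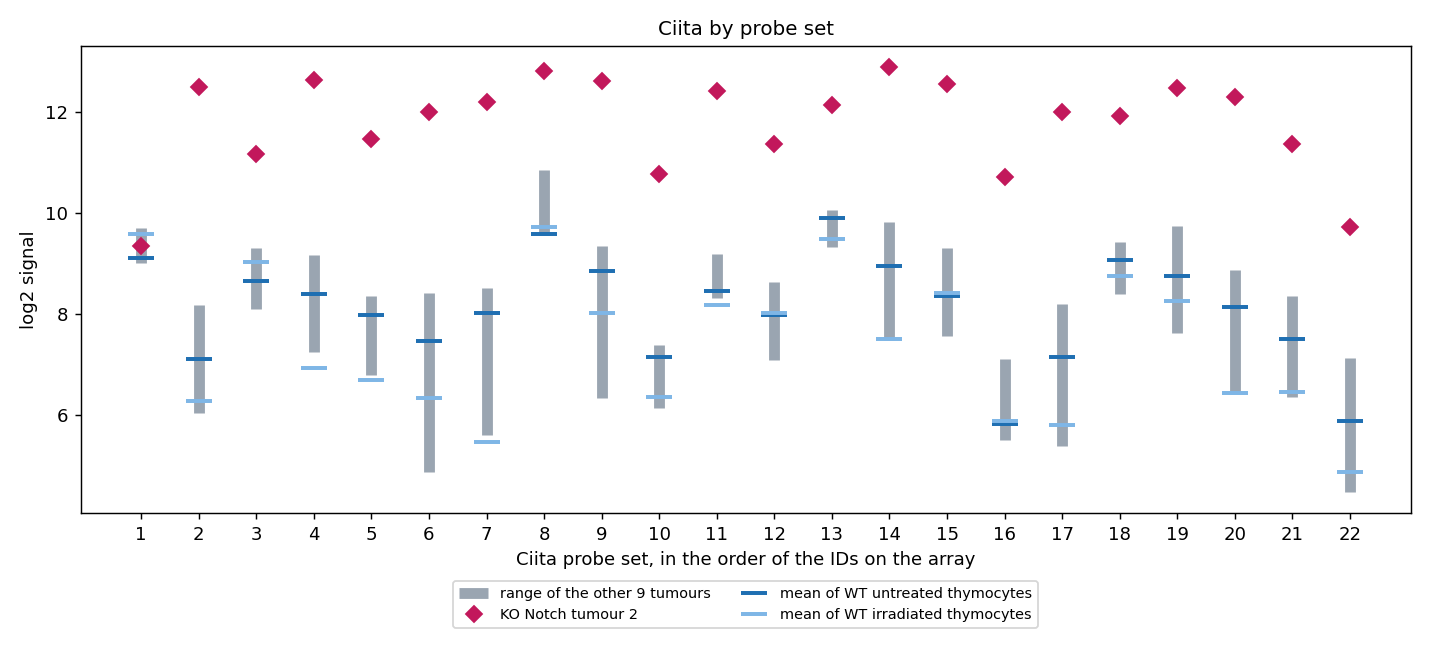
Log2 signal (y axis) of the 22 Ciita probe sets in the order of their IDs (x axis); diamonds are KO Notch tumour 2, grey bars the range of the other 9 tumours, and dashes the means of WT untreated (dark blue) and WT irradiated (light blue) thymocytes. The diamond lies above the bar at every probe set except number 1, where it sits at 9.35 within a bar of 9.01 to 9.71.

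The rest of the class II set was high on this array too. Of 13 other class II, processing and costimulation genes 9 were above all 19 other arrays, among them the H2-DM beta chains H2-DMb1 (10.69 against at most 7.60) and H2-DMb2 (11.62 against at most 8.44). Ctsl, of the same list, was below all others on this array (8.65 against at least 9.14). H2-Ea, the alpha chain of I-E, read 10.43 there and 6.17 to 6.96 on every other array. Its 4 probe sets read 8.92, 10.49, 10.99 and 12.34, each above all other arrays. The C57BL/6 strain is known to carry a deletion that silences H2-Ea, so this value goes against the strain label of the sample, which all 20 samples share. H2-Eb1, the beta chain of I-E, was highest on the same array, at 12.29.

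B cell genes were high and thymocyte genes low on the same array. Of 13 measured B cell markers 12 were above all other arrays, among them Cd79a, part of the B cell receptor (13.76 against at most 10.93), the surface antigen Ms4a1 (12.89 against at most 8.83) and the B lineage factor Pax5 (12.12 against at most 8.53). The exception was Igll1, of the surrogate light chain of precursor B cells, at 7.82. Of 11 thymocyte markers 9 were below all other arrays, among them Cd3d (8.44 against at least 10.90), Cd8a (8.96 against at least 10.96) and Themis (7.82 against at least 11.17). The label thymocytes is therefore not borne out by these markers for this array. Of 15 dendritic cell and macrophage markers 6 were above all others. Of 7 promoter factors 1 was above, Rfx5 (0.25 above the next array, at 9.75), and 1 below, Nfyb (8.71 against at least 8.88). Over all genes 12% were highest and 19.2% lowest on this array, so the promoter factors lie near those shares. The markers shown here were picked after their values were seen.

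**Figure D5:**
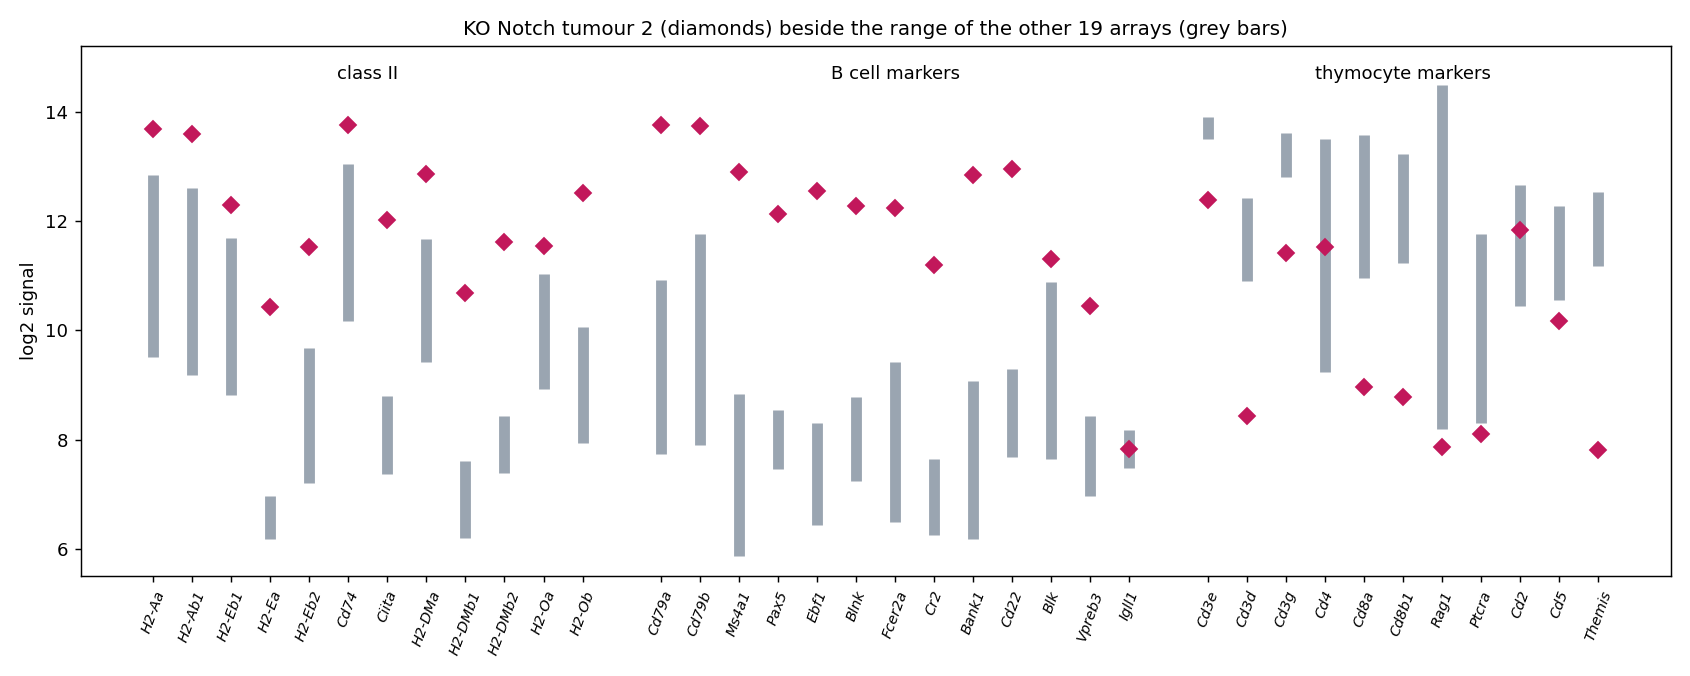
Log2 signal (y axis) of class II genes, B cell markers and thymocyte markers (x axis) in KO Notch tumour 2 (diamonds) beside the range of the other 19 arrays (grey bars). All 12 class II genes shown, H2-Ea among them, and 12 of 13 B cell markers lie above the bars, and 9 of 11 thymocyte markers lie below them.

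WT tumours were set against each other and against WT thymocytes. Between WT Notch and WT ENU tumours the 8 differences ran from -0.80 to 0.82 and none passed (0.023% of genes were called, with 967 at an unadjusted p under 0.05). With KO Notch tumour 2 left out of that fit none of the 8 passed either, beside 0.21% of genes. WT ENU tumours had lower means than WT untreated thymocytes for 7 of the 8 genes, and none passed, beside 20.1% of 13520 genes called. For 5 genes all tumours lay below all thymocyte arrays, as did 26.9% of genes. H2-Ob and H2-Aa had the widest differences, -1.27 ± 0.82 and -1.25 ± 0.74 (limma adjusted p = 0.313 and 0.264), and H2-Oa was the 1 gene higher in the tumours (0.18). With KO Notch tumour 2 left out of the fit, 28.1% of genes passed, and H2-Ob and H2-Aa did (limma adjusted p = 0.00698 and 0.0148).

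Across the 8 groups the order of means was much the same for the I-A chains and Cd74. H2-Aa was highest in KO untreated thymocytes (12.38 ± 0.01, SD, n = 2) and the tumours labelled KO that followed ENU (12.35 ± 0.46, n = 3), whose values overlapped. WT untreated thymocytes (11.87 ± 0.04, n = 2) lay below both, and KO irradiated thymocytes (11.04 ± 0.18, n = 3) came after KO Notch tumours (11.71 ± 2.78, n = 2). WT ENU tumours (10.62 ± 0.37, n = 3), WT Notch tumours (10.29 ± 1.11, n = 2) and WT irradiated thymocytes (9.89 ± 0.09, n = 3) were last, each overlapping its neighbour. Ciita was likewise lowest in WT irradiated thymocytes (7.45 ± 0.08, n = 3), below every KO irradiated array (7.70 ± 0.03, n = 3). H2-Ob differed in that WT ENU tumours were last (8.36 ± 0.19, n = 3), with no overlap with WT irradiated thymocytes (9.11 ± 0.26, n = 3).

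The members did not all vary alike. Over the 19 arrays other than KO Notch tumour 2, the correlation of each gene with the mean of the other 7 was 0.977 for H2-Aa, 0.971 for H2-Ab1, 0.960 for Cd74, 0.931 for H2-Eb1 and 0.878 for Ciita. H2-DMa (0.712), H2-Oa (0.636) and H2-Ob (0.433) followed the others less closely. Within the 10 thymocyte arrays H2-Oa had 0.949 and H2-Ob 0.804, and within the 9 tumours 0.562 and 0.442. These are descriptions over arrays that share groups and normalization.

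Outside the 8 genes, the closest patterns over all 20 arrays, by correlation with the members' mean centred value, were those of Slamf7 (0.984), Plbd1 (0.961), Kynu (0.947), Ly86 (0.941), Gvin1 (0.939), Ccl5 (0.931), Ctsh (0.928) and Cxcl9 (0.927). Within the 10 thymocyte arrays the lowest of these values was 0.870 (Cxcl9) and within the 10 tumour arrays 0.920 (Ccl5). Without KO Notch tumour 2, the array with the widest departure, Slamf7 kept 0.970 and the lowest was 0.859 (Ctsh). Slamf7, a surface receptor of the SLAM family, had higher values in KO by 0.91 ± 0.11 untreated and 0.84 ± 0.09 irradiated, and lower by 1.68 ± 0.10 after irradiation in WT. It was chosen for its likeness over these same arrays, so these differences are a description with no test.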

How the data were processed

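RNA of 20 samples, extracted with a Qiagen kit, amplified with a NuGEN kit and labelled with biotin per the labels' protocols, was measured on arrays of 182058 probe sets. The authors deposited 1 table of values from 3.37 to 15.01, read here as log2 signal. The sources used here name no log base, normalization, background step or summary method for it, so scale and centring were read off the values, and a fold holds only for base 2. Genes were named by the platform annotation, which can be old: 167016 probe sets name 1 gene, 3388 several and 11654 none, and probe sets of the latter kinds were left out. A gene's value on an array was the median over its probe sets, after subtraction of each probe set's mean over all arrays, plus the average of those means. Genes that exceeded an array's 40th percentile on 2 or more arrays in a fit were tested with limma 3.58.1 (lmFit and eBayes) in R 4.3.3, 1 mean per group, Benjamini-Hochberg over all genes tested and a threshold of 0.05. The 10 thymocyte arrays shared a fit, the 10 tumour arrays another, and WT tumours against WT thymocytes used all 20. There were 10 comparisons. "Rose" and "fell" are used of genes past the threshold. The number of arrays, 2 or 3 a group, limits the precision.

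The 8 genes, the gene lists and the tests were chosen with earlier results of these data known. Named genes are the 8 members in every comparison, the Gfi1 probe sets, up to 4 called genes with the smallest p in each pathway list and up to 2 in each marker list, and the 8 genes best correlated with the members; a few further list genes, shown with both genotypes or on the array that stands apart, were chosen after their values were seen. A few list genes are not reported here. Summed levels are the log2 of the summed linear signal of a list, so the brightest genes of a list weigh most in them. Alternatives were the mean of the probe sets, no filter or the 60th percentile, a further quantile normalization, eBayes with trend and robust settings, the replicate number as a block, 1 fit of all 20 arrays and each array left out. Fits without KO Notch tumour 2 were added after the data were seen. On simulated data, 95 and 98 of 100 genes changed by 1 on the log2 scale were recovered for KO against WT in untreated and irradiated thymocytes, 54 in ENU and 26 in Notch tumours. These genes were drawn from all genes past the filter, each with its own spread. The median SE of all genes was 0.20 in ENU and 0.25 in Notch tumours. The 8 members had 0.34 to 0.97 and 0.42 to 1.18, so the tumour rates do not hold for them. Promoter sequences are from RefSeq, GRCm38.p6. Python 3.11.15 and matplotlib 3.10.9 drew the figures.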

Additional observations from a re-analysis of the deposited data

Results flagged for a closer look

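The irradiation responses of KO and WT thymocytes differed, by limma's test of the difference itself, for 11 genes of the lists examined: H2-Aa, Cxcl9, 2 dendritic cell and macrophage markers and all 7 granulocyte markers. H2-Aa fell by 1.98 in WT and 1.34 in KO, a difference of 0.65 ± 0.16 (limma adjusted p = 0.0422). Cxcl9, an interferon-induced chemokine, differed the other way, by -0.72 ± 0.18 (limma adjusted p = 0.046): it fell by 0.35 ± 0.12 in WT and 1.07 ± 0.12 in KO. Cxcl9 was higher in KO than in WT thymocytes when untreated (1.01 ± 0.14) and had a difference of 0.29 ± 0.11 after irradiation that did not pass (limma adjusted p = 0.0979). Lyz2 and Itgam, from the list of dendritic cell and macrophage markers, fell less in KO, by 1.48 ± 0.19 and 0.97 ± 0.17 (limma adjusted p = 0.000453 and 0.00552). Which cells these 2 differences come from was not tested. The granulocyte markers had differences in the same direction of 2.57 for S100a8, 2.38 for S100a9, 2.33 for Mmp8, 2.07 for Lcn2, 1.87 for Ltf, 1.51 for Retnlg and 1.46 for Ngp. All 7 fell in WT, while in KO none fell and 1 rose, with a median difference of 0.24. All 7 were already lower in KO than in WT before irradiation, with sums of 9.28 to 9.34 against 12.71 to 12.92. At such low KO values a fall like that in WT may not be measurable.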

How the results depend on the processing

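Calls in thymocytes depended most on which arrays shared the estimate of spread. In 1 fit of all 20 arrays the members called fell to 0 in all 5 thymocyte comparisons, and with KO Notch tumour 2 left out of that fit to 0 for KO against WT untreated, 2 for KO against WT irradiated, 5 for irradiation in WT and 0 for the difference in response. That difference also had 0 calls with the mean of the probe sets, no filter, a further quantile normalization or the replicate block. WT ENU tumours against WT thymocytes had 2 with KO Notch tumour 2 left out. With each array left out in turn, the calls ran from 2 to 6 for KO against WT untreated, 0 to 2 for the difference in response, 0 to 8 for KO against WT Notch tumours and 0 to 1 for the difference in KO effect between tumour types. Signs turned for H2-Ob (-0.12 to 0.052) untreated, H2-DMa (-0.29 to 0.0092) irradiated, and in Notch tumours for H2-Aa (-0.55 to 3.39), H2-Ab1 (-0.85 to 3.56), H2-Eb1 (-0.33 to 2.98), H2-Ob (-1.24 to 3.33), Cd74 (-0.50 to 2.95) and Ciita (-0.33 to 4.31). Under 60th percentile filtering and under eBayes with trend and robust settings no member's call changed; Ciita was not tested under the former.

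Over all genes, the fit of 20 arrays called 115, 148, 548, 772 and 6 in the thymocyte comparisons in place of 1566, 1903, 4413, 4946 and 240. It called 679, 184, 126 and 270 in the tumour comparisons in place of 0, 2, 0 and 3. The tumour fit without KO Notch tumour 2 called 25 and 27 for KO in ENU tumours and for Notch against ENU in WT. Quantile normalization called 6 genes for KO in Notch tumours, and no filter 1 for the difference in KO effect.

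The replicate numbers do not pair the samples: same-numbered deviations correlated by 0.12 in untreated thymocytes, -0.32 to 0.20 in irradiated thymocytes, -0.08 to 0.04 in ENU and 0.05 in Notch tumours. With the replicate block H2-Aa had the same difference in response (0.65, adjusted p = 0.072), no other member's call changed, and KO in Notch tumours and Notch against ENU called 0 and 1 genes.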

Other observations

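WT ENU tumours were also set against WT untreated thymocytes for the genes beside class II. Over all 13520 genes 20.1% passed in either direction, and the counts of the lists are to be read against that share. Of 11 processing and costimulation genes 2 rose: the endosomal proteases Lgmn (2.03 ± 0.52, limma adjusted p = 0.0131) and Ctsb (0.89 ± 0.23, 0.0159). Of 10 genes on the interferon gamma route 4 fell: Socs1 (-1.35 ± 0.21), the receptor chain Ifngr1 (-0.85 ± 0.16), the kinase Jak1 (-0.54 ± 0.16) and Gbp2 (-1.47 ± 0.44), with limma adjusted p-values of 0.000693, 0.00214, 0.0262 and 0.0293. Of the 7 promoter factors Rfxank, a subunit of RFX, fell by 1.01 ± 0.16 (limma adjusted p = 0.000796), from 10.72 to 9.72. Of 11 dendritic cell and macrophage markers 1 rose, Cd68 (1.45 ± 0.36), and 1 fell, none of 12 B cell markers passed, and 6 of 7 granulocyte markers fell. With KO Notch tumour 2 left out of the fit, 28.1% of genes passed. The counts were then 2 rises and 2 falls of 11 for processing and costimulation, 1 and 5 of 10 for the interferon gamma route, 0 and 2 of 7 for the promoter factors and 0 and 7 of 11 for B cell markers, and H2-Aa and H2-Ob were among the genes that fell. The tumours, unlike the thymocytes, came from mice given pIpC and ENU, so that treatment and tumour cannot be told apart.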
